A study of Homo sapiens with 20 samples.

Results

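Integrins and the proteins that bind their tails were examined in BEAS-2B, a human bronchial epithelial cell line made immortal in culture, with and without exposure to nickel chloride. The set holds 38 of the 25411 genes counted: 18 integrin alpha chains, 8 beta chains and 12 focal adhesion partners (FERMT1, FERMT2, FERMT3, TLN1, TLN2, ILK, PXN, VCL, PARVA, PARVB, PTK2 and ZYX). Members were chosen by gene symbol, with earlier results of these data known. Integrins are receptors of an alpha and a beta chain that span the membrane and hold a cell to the matrix around it. Talins and kindlins bind the beta tail and switch the receptor on, and vinculin, zyxin, paxillin, focal adhesion kinase and the complex of integrin-linked kinase with parvins then tie it to actin and to signalling. Epithelial cells use mainly laminin and collagen receptors, while fibronectin receptors are characteristic of mesenchymal cells.

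RNA was sequenced in 20 libraries of 7 groups, all of this 1 cell line. Control_3D (n = 4) and Ni_3D (n = 2) are unexposed cells and cells exposed to NiCl2 for 3 days, and Ni_3D+14D (n = 2) is labelled as that exposure followed by a further 14 days, for which the medium is not described. Control_6W (n = 2) and Ni_6W (n = 2) belong to an exposure of 6 weeks, and Ni_6W+2W (n = 2) are such cells washed and kept for 2 weeks in medium without nickel. Ni_clone (n = 6) holds 6 populations, each grown without nickel from 1 colony of cells exposed for 6 weeks at a concentration the labels write as 100 mM. For the other exposures no concentration is given in the sources used here. Nothing in the labels says that replicates came from separate cultures, so p-values measure the spread between these libraries, which may be technical. Past nickel, time in culture and cloning cannot be told apart in the later groups, and in bulk RNA fewer cells with a transcript and less of it per cell cannot be told apart either.

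Totals ran from 8609243 to 88848786 reads per library, and 0.372% to 0.585% of the reads fell on the 38 genes. Levels are given as CPM, read counts scaled to library size with TMM factors, and levels of different genes are compared only as the authors' RPKM, which also divides by gene length. As for the labelled cell type, the simple-epithelial keratins KRT8 and KRT18 lay at 186 to 836 and 134 to 388 CPM. KRT5 and TP63, which mark basal airway cells, did not exceed 4.04 and 0.214 CPM, and the summed level of the measured markers of differentiated airway (SCGB1A1, FOXJ1 and SFTPC) did not exceed 0.252 CPM. KRT8, KRT18, KRT5 and TP63 belong to a list of 7 epithelial markers, of which 5 had reads in Control_6W, Ni_3D+14D and Ni_6W. Levels of the rest of that list are not given here, so these values describe only part of it. TFF1 and ESR1, genes of oestrogen-responsive epithelium, were at 20.1 and 3.52 CPM in Control_3D replicate 1 and at 33.3 and 10.7 CPM in Ni_3D replicate 1, and TFF1 was at most 0.116 CPM in the others, where ESR1 had no reads. The summed level of that marker list, of which all 6 genes had reads, ran from 0.351 to 75.1 CPM in Control_3D and from 3.49 to 154 CPM in Ni_3D. ZEB1, the transcription factor that the series is named for, split the control libraries of the short exposure: it was at 11.9 and 12.4 CPM in Control_3D replicates 1 and 2 and at 1.05 and 1.76 CPM in replicates 3 and 4. The Control_6W libraries were at 0.99 and 0.61 CPM of ZEB1, and the 14 nickel libraries lay between 7.75 and 18.1 CPM. For the named genes of the 3-day comparison, values are also given without Control_3D replicates 1 and 2, and without the 2 libraries with TFF1 and ESR1 (replicate 1 of Control_3D and of Ni_3D).

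A few chains made up most of the integrin message. ITGA3, the alpha chain of a laminin receptor, had the highest median RPKM of the set (163 over 20 libraries), and ITGA5, the alpha chain of the main fibronectin receptor, followed among the alpha chains at 63.3 RPKM. ITGA3 held a median of 55.1% of the summed alpha-chain RPKM (42.8% to 71.1%) and ITGA5 22.9% (13.9% to 27.2%). ITGB1, the common partner of most alpha chains, held a median of 80.3% of the summed beta-chain RPKM (69.8% to 87.6%), with ITGB5 next at 11.1%. The range of ITGA3 did not overlap that of ITGA5, nor did that of ITGB1 overlap that of ITGB5. Below ITGA5 the alpha chains with the highest medians were ITGA7 (29.4 RPKM), a laminin receptor chain best known from muscle, ITGAV (20.3), the chain of the vitronectin receptors, and ITGA6 (6.61), a laminin receptor chain that pairs with ITGB4 in hemidesmosomes. The ranges of ITGA7 and ITGAV over the libraries overlapped (11.1 to 48.8 and 9.39 to 30.9 RPKM), so their order is not fixed by these data. ITGB4 (8.65 RPKM) and ITGB3 (3.88) followed ITGB5 (16.0) among the beta chains.

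The partners were led by ZYX (median 155 RPKM), TLN1 (91.1) and ILK (84.2), with VCL (53.9) and PXN (51.1) next. Of the talins, TLN2 had a median of 5.14 RPKM and lay below TLN1 in all 20 libraries. Of the kindlins, FERMT2, the widely expressed one, was at 20.5 RPKM, while FERMT1, the epithelial one, was at 0.82 and FERMT3, the blood-cell one, at 0.64. In all, 22 of the 38 members had a median of at least 10 CPM, 7 lay between 1 and 10 CPM and 9 lay below 1 CPM. ITGA8, ITGAD, ITGAL and ITGB6 did not exceed 0.439 CPM in any library.

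**Figure D1:**
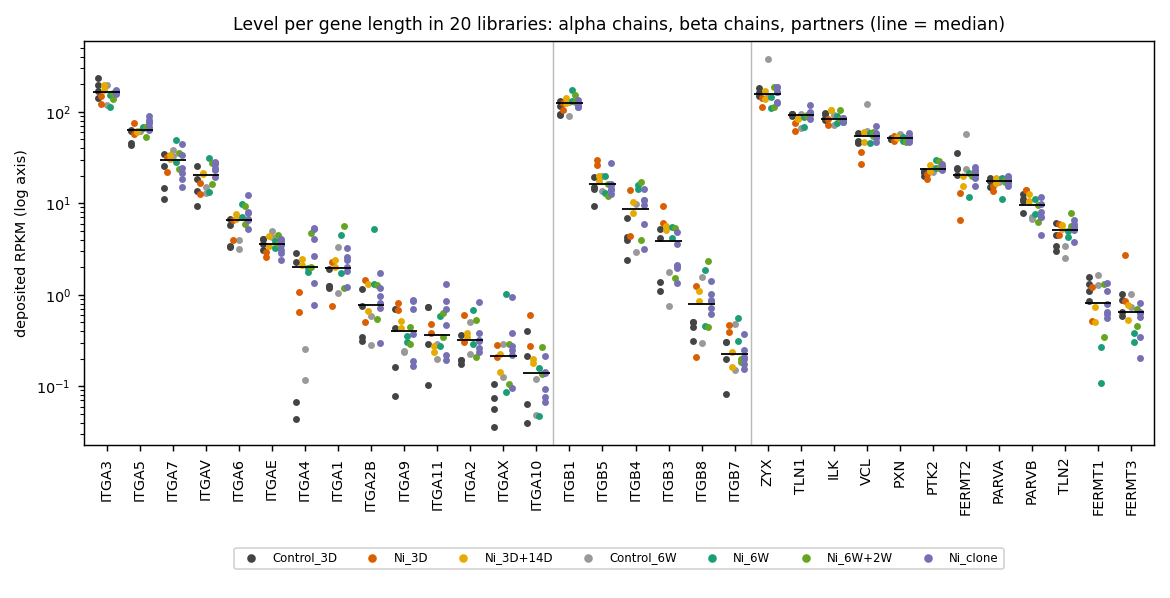
Deposited RPKM on a log axis (vertical) of the 32 members with reads in all 20 libraries (horizontal), split into alpha chains, beta chains and partners; each point is 1 library, coloured by group, and each black line is the median over libraries. ITGA3, ITGB1 and ZYX lead their classes at medians of 163, 125 and 155 RPKM, and ITGA4 and FERMT1 spread more widely than abundant members such as PXN.

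Some members kept narrow ranges. Of 26 members with at least 10 reads in every library, 7 (26.9%) stayed within a 2-fold range over all 20 libraries, beside 27.4% of 12090 genes with such reads. PXN, the paxillin scaffold, ran from 191 to 253 CPM, and PTK2, focal adhesion kinase, from 99.8 to 145 CPM. ILK, integrin-linked kinase, ran from 144 to 224 CPM, PARVA, the parvin that binds it, from 121 to 201 CPM, and TLN1 from 613 to 1176 CPM. ITGB1 (399 to 712 CPM) and ITGA5 (209 to 401 CPM) were the chains with such narrow ranges. ITGA3, at 687 to 1377 CPM, lay just outside it. Other partners varied more, with a ratio of the highest to the lowest library of 8.87 for FERMT2, 4.53 for VCL, 3.89 for ZYX and 2.99 for TLN2. For ITGA3 and the 7 narrow genes the range over the 14 nickel libraries overlapped that over the 6 controls.

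ITGA4 was the member whose libraries lay furthest apart among those with a median above 10 CPM. Its product pairs with ITGB1 or ITGB7 and binds fibronectin and VCAM1, and is known mainly from leukocytes and migrating mesenchymal cells. The gene lies at chr2:182321619-182402468 (hg19, plus strand). In Control_3D it was at 15.9, 20.02, 0.31 and 0.35 CPM in replicates 1 to 4, the last pair resting on 8 and 3 reads. In Control_6W it was at 0.77 and 1.88 CPM. The 2 high control libraries are those high in ZEB1, and the other 4 controls all lie below every nickel library.

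With nickel, ITGA4 was at 7.10 and 4.68 CPM in Ni_3D, 14.3 and 17.0 in Ni_3D+14D, 13.2 and 12.8 in Ni_6W and 33.6 and 13.2 in Ni_6W+2W. The 6 clones were at 4.95, 27.4, 35.9, 9.17, 37.8 and 19.1 CPM. Every clone was above both Control_6W libraries, and ITGA4 rose in the clones: 22.4 ± 13.7 CPM (SD, n = 6) against 1.33 ± 0.79 (n = 2), a log2 fold change of 4.10 ± 0.94 (SE; edgeR quasi-likelihood test, Benjamini-Hochberg adjusted p = 0.0419). This call was lost without Control_6W replicate 1 (log2 fold change 3.58, adjusted p = 0.106) or replicate 2 (4.86, adjusted p = 0.224), and without clone 2, 3 or 6 (3.91 to 4.14, adjusted p from 0.0635 to 0.0796). It was also lost with no filter on low counts (4.10, adjusted p = 0.0807), with all 20 libraries in 1 fit (4.08, adjusted p = 0.101) and with the replicate block (3.37, adjusted p = 0.0915). The block rests this contrast on clones 1 and 2, the only clones that share a replicate number with a Control_6W library. The uncloned 6-week groups had shifts of the same sign that did not pass: 3.30 ± 1.55 in Ni_6W (edgeR adjusted p = 0.202) and 4.15 ± 1.59 in Ni_6W+2W (adjusted p = 0.315), in a fit whose spread includes the split of Control_3D. In edgeR ITGA4 was called in Ni_6W with only the 2 groups compared in the fit (3.29, adjusted p = 0.0467), and with the replicate block in Ni_6W (3.28, adjusted p = 0.0201) and Ni_6W+2W (4.08, adjusted p = 0.0146).

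For the 3-day exposure the sign of ITGA4 depended on which controls were used. Against all 4 Control_3D libraries the log2 fold change in Ni_3D was -0.66 ± 1.20 (edgeR adjusted p = 0.773), and both Ni_3D libraries lay between the high and the low pair of controls. Without Control_3D replicates 1 and 2 it was 4.17 (adjusted p = 0.00434), and without the libraries with TFF1 and ESR1 it was -0.60 (adjusted p = 0.886). In Ni_3D+14D it was 0.74 (adjusted p = 0.985) with all controls and 5.57 (adjusted p = 0.00197) without that pair. FN1, the fibronectin gene and a ligand of ITGA4, showed the same split, at 3185 and 3114 CPM in Control_3D replicates 1 and 2 and 161 and 102 CPM in replicates 3 and 4. VCAM1, the other ligand, did not exceed 0.271 CPM in any library. The labels name nothing that sets the 2 pairs of controls apart.

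ITGB3, ITGA6 and ITGAV lay on the same side of that split, and ITGA7 on the other. ITGB3, which pairs with ITGAV and, in platelets, with ITGA2B, was at 29.7, 23.4, 6.27 and 7.61 CPM in Control_3D and at 4.22 and 10.6 CPM in Control_6W. It was at 50.4 and 35.3 CPM in Ni_3D, 27.7 and 31.7 in Ni_3D+14D, 25.3 and 29.1 in Ni_6W, and 8.63 and 28.2 in Ni_6W+2W. Both Ni_3D libraries were above all 4 controls, at a log2 fold change of 1.35 ± 0.59 that did not pass (edgeR adjusted p = 0.189), of 2.63 without Control_3D replicates 1 and 2 (adjusted p = 0.0184) and of 1.49 without the libraries with TFF1 and ESR1 (adjusted p = 0.306). Both Ni_6W libraries were above both controls at 1.88 ± 0.75, which did not pass either (adjusted p = 0.139) but was called with the replicate block (2.08, adjusted p = 0.0223) and by DESeq2 (adjusted p = 0.0438). The clones, at 7.68 to 27.1 CPM with a median among them of 11.3, overlapped Control_6W.

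ITGA6 was at 38.2, 44.6, 21.8 and 22.1 CPM in Control_3D and at 20.6 and 27.8 CPM in Control_6W. The Ni_6W libraries were at 49.9 and 60.3 CPM, those of Ni_6W+2W at 40.0 and 56.8 CPM, and the clones from 33.3 to 73.4 CPM, all above both Control_6W libraries. The differences fell short of the threshold in edgeR, at a log2 fold change of 1.19 ± 0.36 in Ni_6W (adjusted p = 0.0781) and 1.06 ± 0.28 in the clones (adjusted p = 0.0548). DESeq2 put both under it (adjusted p = 0.0215 and 0.00338), as did edgeR in the clones without clone 1 (0.92, adjusted p = 0.0374) and in Ni_6W with the replicate block (1.20, adjusted p = 0.0325). ITGA7 was lower where ZEB1 was high among the short controls, at 70.9 and 52.7 CPM against 123 and 160 CPM, and was at 158 and 191 CPM in Control_6W. Its clones spread from 69.6 to 207 CPM and overlapped both control groups.

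ITGAV rose in the clones. It lies at chr2:187464932-187545629 (hg19, plus strand), and its chain forms receptors for vitronectin and fibronectin and for latent TGF-beta. The clones were at 168, 208, 215, 156, 199 and 234 CPM against 104 and 128 CPM in Control_6W, so that the groups did not overlap. The means were 196.6 ± 29.4 CPM (SD, n = 6) and 116 ± 17.2 CPM (n = 2), a log2 fold change of 0.78 ± 0.17 (edgeR adjusted p = 0.0342). The call was lost without Control_6W replicate 1 (0.63, adjusted p = 0.106) or 2 (0.93, adjusted p = 0.171), and without clone 2, 3 or 6 (0.73 to 0.76, adjusted p from 0.0522 to 0.0724). It was also lost with all 20 libraries in 1 fit (0.76, adjusted p = 0.172) and with the replicate block (0.72, adjusted p = 0.285). The block again rests the contrast on clones 1 and 2 alone. Control_3D, at 151, 203, 111 and 74.4 CPM, spread over a wider range than the difference itself, and Ni_6W was at 114 and 233 CPM.

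**Figure D2:**
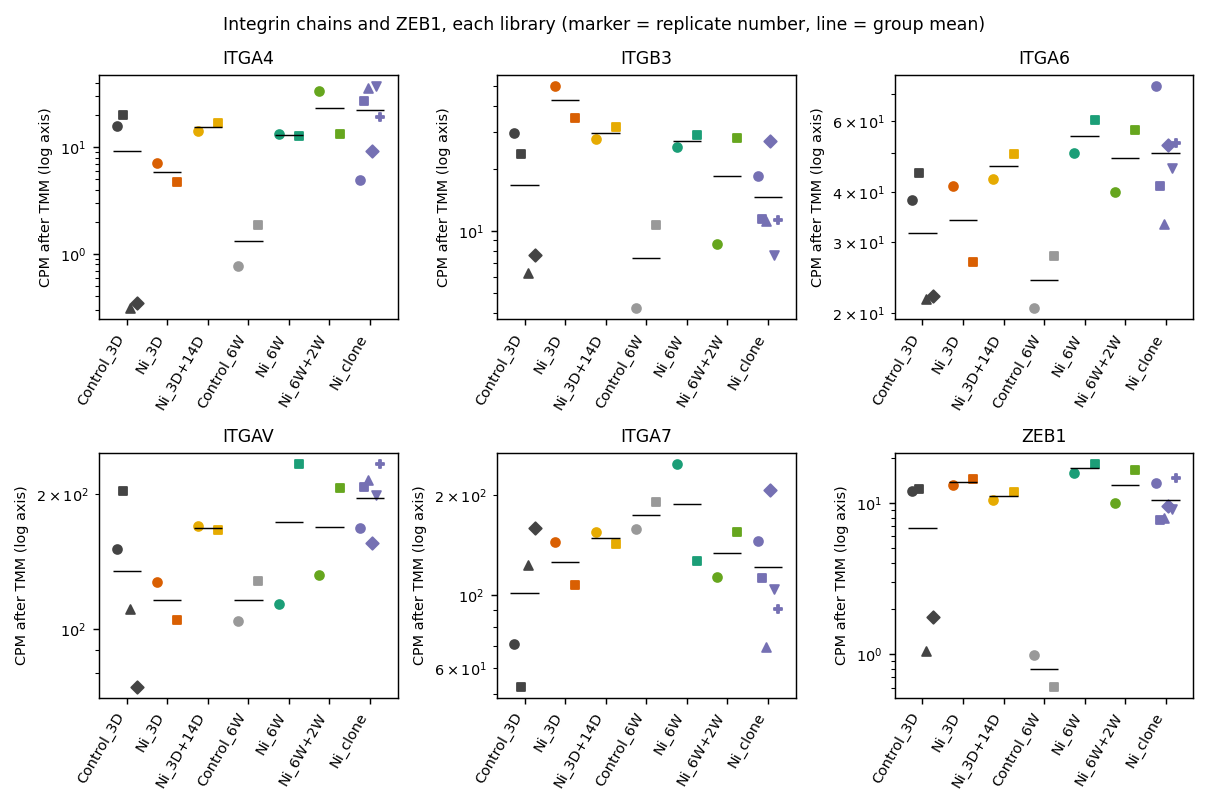
CPM on a log axis (vertical) of ITGA4, ITGB3, ITGA6, ITGAV, ITGA7 and ZEB1 in each library by group (horizontal); marker shapes stand for replicate numbers and black lines for group means. Control_3D falls into a pair high and a pair low in ZEB1, and ITGA4 goes from 0.31 to 20.02 CPM across the same pairs while ITGA7 runs the other way.

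The promoters of ITGA4 and ITGA6 are printed because both genes were lower in the controls low in ZEB1, a factor known to bind E-boxes with the letters CACCTG, searched here on both strands. RefSeq promoters of GRCh38.p14, from 250 bases before to 50 after a start, were matched for 26 of the 38 genes. ITGB3 and ITGA7 were not among them, and an effect of ZEB1 on any of these genes was not tested. The capitals mark E-boxes on either strand. Where a gene has several windows, the one with the most E-boxes is printed.
ITGA4 promoter, chr2:181457136-181457435, plus strand: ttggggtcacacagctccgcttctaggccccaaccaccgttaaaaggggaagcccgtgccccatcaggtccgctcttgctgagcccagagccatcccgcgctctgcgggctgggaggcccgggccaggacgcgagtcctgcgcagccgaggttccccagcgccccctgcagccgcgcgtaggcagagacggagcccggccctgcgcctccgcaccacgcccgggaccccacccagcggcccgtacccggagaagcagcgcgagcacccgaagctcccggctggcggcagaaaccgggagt
ITGA6 promoter, chr2:172427086-172427385, plus strand: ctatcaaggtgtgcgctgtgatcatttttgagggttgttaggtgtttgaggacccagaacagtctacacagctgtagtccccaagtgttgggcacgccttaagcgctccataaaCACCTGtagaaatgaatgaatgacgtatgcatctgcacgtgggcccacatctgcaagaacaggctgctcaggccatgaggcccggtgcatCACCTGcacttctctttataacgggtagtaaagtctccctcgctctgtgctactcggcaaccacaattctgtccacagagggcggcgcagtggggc
The ITGA4 window holds no such letters, and this window of ITGA6 holds 2, at 136 and 46 bases before the start. A second ITGA6 window holds none, and neither do the windows of ITGAV, a chain on the same side of that split. Among the 34 windows of members 5 hold the letters (14.7%), those of ITGA11, ITGA6, ITGB5, ITGB6 and PXN, beside 20.6% of 35116 promoters in the table.

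FERMT1 was the member called in the long exposure. It encodes kindlin-1, the kindlin of epithelia, and lies at chr20:6055492-6104191 (hg19, minus strand). It was at 9.80 and 7.90 CPM in Control_6W and at 0.70 and 1.50 CPM in Ni_6W, from 16 and 17 reads in the nickel libraries. FERMT1 fell from 8.85 ± 1.34 CPM (SD, n = 2) to 1.10 ± 0.57 CPM (n = 2). The fitted log2 fold change was -3.06 ± 0.68, or 8.33-fold lower (edgeR adjusted p = 0.0497). The Benjamini-Hochberg method gave this same adjusted p to every called gene of the other lists in Ni_6W. Their unadjusted edgeR p-values ran from 2.7e-05 (POSTN) to 0.00105 (ZEB1). These tied calls pass or fail together, just under the threshold. Both Ni_6W libraries were also below each of the other 18 libraries. The call was lost without Control_6W replicate 1 (-2.90, adjusted p = 0.0703), Control_6W replicate 2 (-3.21, adjusted p = 0.212) or Ni_6W replicate 1 (-2.57, adjusted p = 0.255), and with the other 4 uncloned groups left out of the fit (-3.05, adjusted p = 0.0656).

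The low level of FERMT1 was not seen in every group with past nickel. Ni_6W+2W was at 7.87 and 1.90 CPM, one library at the level of the controls and one near Ni_6W, and did not differ from Ni_6W past the threshold (2.21 ± 0.67, edgeR adjusted p = 0.733). The clones ran from 3.18 to 8.15 CPM and overlapped Control_6W. Ni_3D was at 2.97 and 7.46 CPM and Ni_3D+14D at 2.90 and 4.33 CPM, against 5.08, 6.48, 7.82 and 9.13 CPM in Control_3D. The difference between the long and the short response did not pass (-2.63 ± 0.83, adjusted p = 0.314).

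FERMT2, kindlin-2, lay lower in Ni_3D and Ni_6W than in their controls and was called in some fits only. It was at 94.5, 136, 90.6 and 75.8 CPM in Control_3D and at 48.0 and 26.1 CPM in Ni_3D, with no overlap, at a log2 fold change of -1.42 ± 0.38 (edgeR adjusted p = 0.0554). DESeq2 called it in that comparison (adjusted p = 0.00338), as did edgeR with only the 2 groups compared (-1.43, adjusted p = 0.0493). It was not called in edgeR without Control_3D replicates 1 and 2 (-1.18, adjusted p = 0.102) or without the libraries with TFF1 and ESR1 (-1.96, adjusted p = 0.115). Ni_3D+14D was at 57.5 and 75.5 CPM, below Control_3D in both libraries. In Control_6W it was at 91.3 and 232 CPM, and in Ni_6W at 48.2 and 75.7 CPM (-1.38 ± 0.42, edgeR adjusted p = 0.0789). FERMT3, kindlin-3, was at 2.43 and 8.17 CPM in Ni_3D and at 1.70 to 2.81 CPM in Control_3D.

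FERMT2, VCL and ZYX had their highest values of the 20 libraries in Control_6W replicate 2. VCL, vinculin, was at 773 CPM in that library against 375 CPM in replicate 1, and ZYX, zyxin, at 1052 against 398 CPM. Vinculin binds talin under tension and zyxin gathers at adhesions and stress fibres. THBS1 (2713 against 547 CPM) and CTGF (1143 against 307 CPM), secreted proteins on the list of integrin ligands, and ENAH (456 against 218 CPM) and CSRP1 (560 against 182 CPM), actin-binding partners, were also higher in that library. Other partners differed less between the 2 control libraries, with PXN at 245 CPM in replicate 1 and 253 CPM in replicate 2, PARVA at 174 and 193, ILK at 194 and 161, and TLN1 at 921 and 671. These genes were singled out after the values were seen. With both controls, VCL and ZYX did not pass in Ni_6W (-0.85 ± 0.29 and -1.09 ± 0.40, edgeR adjusted p = 0.0958 and 0.112) or in the clones (-0.75 and -0.78, adjusted p = 0.0965 and 0.152).

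Without Control_6W replicate 1 the calls turned to these genes. FERMT2 (-1.91, edgeR adjusted p = 0.0329), VCL (-1.29, adjusted p = 0.0261) and ZYX (-1.64, adjusted p = 0.0333) then passed in Ni_6W, and all 3 passed in the clones (-1.55, -1.18 and -1.32, adjusted p from 0.00688 to 0.0145). VCL then also passed in Control_6W against Control_3D (1.35, adjusted p = 0.0168). Of all genes 2.63% were then called in Ni_6W, 10.3% in the clones and 0.862% between the controls. Without replicate 2 the values were small: FERMT2, VCL and ZYX were at -0.57, -0.24 and -0.23 in Ni_6W (adjusted p from 0.485 to 0.762) and at -0.21, -0.14 and 0.07 in the clones (adjusted p from 0.744 to 0.934), so that ZYX changed sign there. None of the 35 members tested was then called in Ni_6W, where 0 of 15494 genes passed, and without Ni_6W replicate 1 it was 0 of 15405 genes. In Ni_3D, VCL was at 211 and 171 CPM against 275 to 359 CPM in Control_3D, with no overlap (-0.66 ± 0.25, adjusted p = 0.135; -0.74 without Control_3D replicates 1 and 2 and -0.86 without the libraries with TFF1 and ESR1, adjusted p = 0.155 and 0.251), and ZYX was at 290 and 386 CPM against 386 to 482 CPM.

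**Figure D3:**
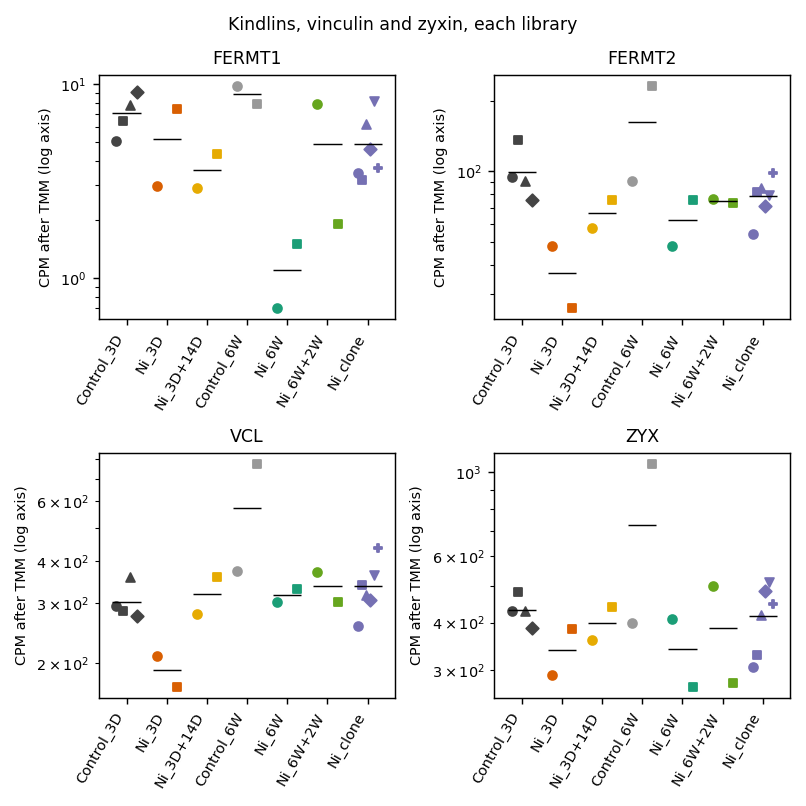
CPM on a log axis (vertical) of FERMT1, FERMT2, VCL and ZYX in each library by group (horizontal); marker shapes stand for replicate numbers and black lines for group means. FERMT1 is lowest in Ni_6W at 0.70 and 1.50 CPM, and Control_6W replicate 2 has the highest FERMT2, VCL and ZYX of all libraries at 232, 773 and 1052 CPM.

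Over the whole set few members passed. In Ni_3D against Control_3D edgeR called 0 of the 33 members tested, beside 4.33% of all 14927 genes, with 8 members at an unadjusted p under 0.05 (24.3% of genes). DESeq2 called 3 of 32 members (FERMT2, ITGB5 and TLN1) beside 13.5% of genes. ITGB5, a vitronectin receptor chain, was at 109 and 107 CPM in Ni_3D against 36.4 to 75.3 CPM in the 4 controls (0.95 ± 0.29, adjusted p = 0.0727), and its log2 fold change was 0.70 without Control_3D replicates 1 and 2 and 0.91 without the libraries with TFF1 and ESR1 (edgeR adjusted p = 0.175 and 0.27). TLN1 was at 699 and 613 CPM against 873 to 925 CPM (-0.46 ± 0.16, adjusted p = 0.113), with -0.49 and -0.57 in the same fits (adjusted p = 0.154 and 0.227). The 6 beta chains tested all had a positive log2 fold change, with a median of 1.01 beside 0.03 over all genes, and the 12 partners a median of -0.21. In those fits 6 of 6 and 6 of 7 beta chains were positive, with medians of 0.90 and 0.91, and the partners had medians of -0.18 and -0.15. Without Control_3D replicates 1 and 2 the count of members called was 4, beside 7.95% of genes: ITGA4, ITGB3, ITGA9 (2.53, adjusted p = 0.0163) and ITGA10 (2.98, adjusted p = 0.0387). Without the 2 libraries with TFF1 and ESR1 it was 1 beside 75 of 15198 genes, ITGB2, whose reads in that fit come mainly from Ni_3D replicate 2.

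In Ni_3D+14D edgeR called 0 of 33 members and 0% of genes against Control_3D, with 0 members at an unadjusted p under 0.05 (4.11% of genes) and 0 called by DESeq2 (0.107%). Against Ni_3D it called 0 members beside 0.255% of genes, with 2 members (FERMT3 and VCL) at an unadjusted p under 0.05 (12.6% of genes) and 0 by DESeq2 (3.16%). In Ni_6W it called 1 of 33 members, FERMT1, beside 2.47% of genes, or 1.21% in the downward direction. There 8 members had an unadjusted p under 0.05, or 24.2% beside 26.6% of genes. DESeq2 called 7 (FERMT1, FERMT2, ITGA2B, ITGA6, ITGB3, VCL and ZYX), or 21.2% beside 13.8% of genes. In Ni_6W+2W against Control_6W edgeR called 0 members and 0% of genes, with 6 members at a p under 0.05 before adjustment (13.1% of genes) and 1 by DESeq2 (2.24%). That gene, TLN2, was at 105 and 70.1 CPM in Ni_6W+2W against 45.8 and 35.3 CPM in Control_6W (edgeR 1.11 ± 0.32, adjusted p = 0.256, and DESeq2 adjusted p = 0.0448). Against Ni_6W it called 0 members and 0% of genes, with 2 members (FERMT1 and ITGA2B) at an unadjusted p under 0.05 (6.59% of genes) and 0 by DESeq2 (0.047%).

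In the clones edgeR called 2 of 33 members against Control_6W, ITGA4 and ITGAV, beside 5.26% of 14172 genes, or 2.89% in the upward direction. There 9 members (27.3%) had an unadjusted p under 0.05, beside 25.2% of genes. DESeq2 called 6 (FERMT2, ITGA4, ITGA6, ITGAV, TLN2 and VCL), or 18.2% beside 13.9% of genes. Against Ni_6W+2W it called 0 members beside 0.028% of genes, with 1 member (ITGA5) at an unadjusted p under 0.05 (6.61% of genes) and 0 by DESeq2 (0.428%). The control groups differed from each other in 0 members and 0% of genes by edgeR, with 4 members at an unadjusted p under 0.05 (8.31% of genes) and 0 by DESeq2 (0.364%). The difference between the long and the short response called 0 members and 0% of genes, with 5 members at a p under 0.05 before adjustment (10.9% of genes) and 0 by DESeq2 (1.38%). For any difference among the 6 uncloned groups edgeR called 0 members beside 1.35% of genes. DESeq2 called 8 beside 21.5% of genes, and 8 were at an unadjusted edgeR p under 0.05 beside 25.1% of genes, both 24.2% of the members. The members' shares in edgeR, 3.03% in Ni_6W and 6.06% in the clones, rest on 1 and 2 genes and lie near those of all genes.

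**Figure D4:**
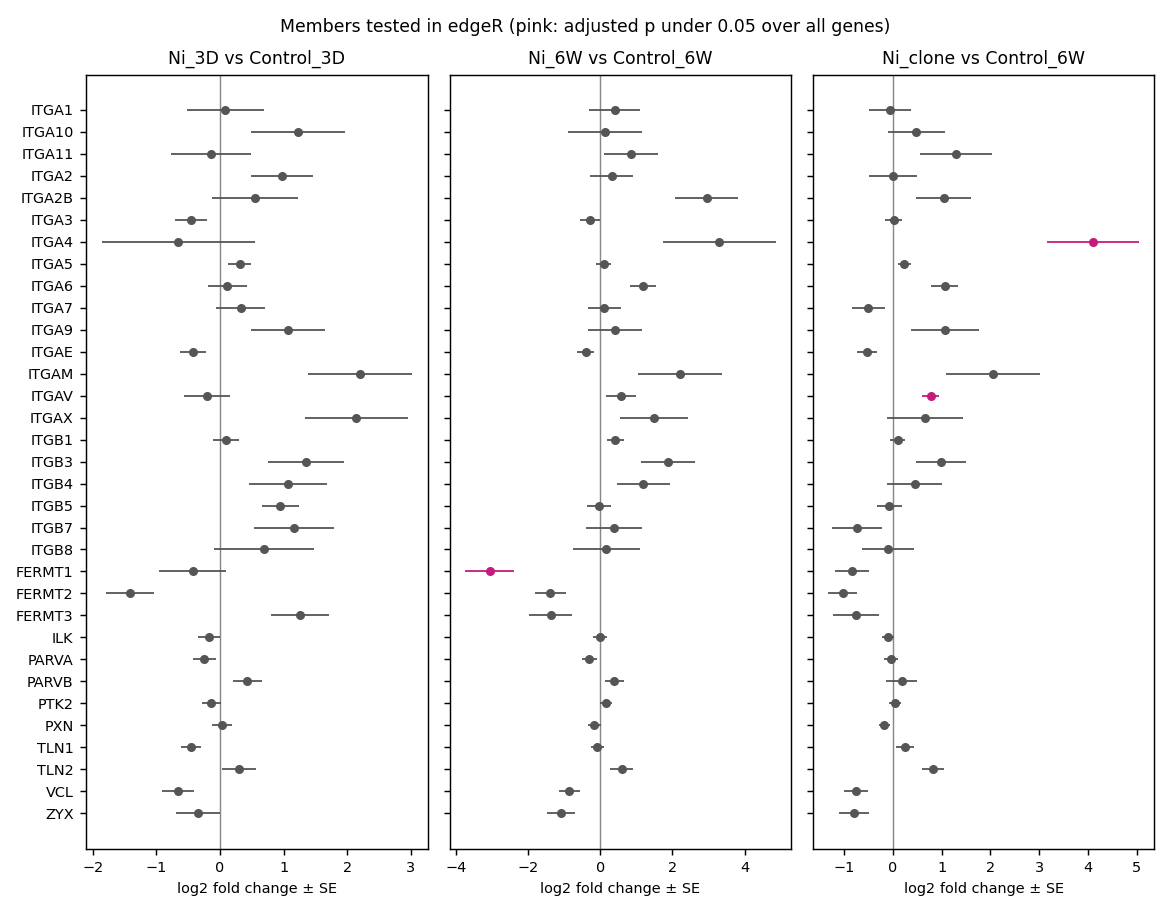
Log2 fold changes with standard errors (horizontal) of the 33 tested members (vertical) in Ni_3D against Control_3D, Ni_6W against Control_6W and the clones against Control_6W; pink marks the members called by edgeR. FERMT1 in Ni_6W (-3.06) and ITGA4 (4.10) and ITGAV (0.78) in the clones are the calls, and members such as ILK and PXN lie near 0.

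Chains known from blood cells and platelets peaked in single libraries. ITGA2B, ITGAX and FERMT3 had reads in all 20 libraries, ITGAM in 19 and ITGB2 in 11. ITGB2, the beta chain of leukocyte integrins, was at 4.23 CPM in Ni_3D replicate 2, from 356 reads, and at 0.378 CPM or less in the other 19 libraries. It was left out of the tests by the filter on low counts, and its calls in fits that let it in rest on this 1 library. The same library had the highest FERMT3 (8.17 CPM) and ITGAM (1.66 CPM), an alpha chain that pairs with ITGB2, and was the most deeply sequenced. Of the 5 leukocyte markers summed here PTPRC and CD3E had no reads in it, which allows up to 0.0338 CPM for counting error only, LYZ was at 0.0119 CPM, and CD14 and CD68 were at 7.14 and 38.9 CPM. The summed list was at 46.1 and 52.4 CPM in Ni_3D and at 33.0 to 63.3 CPM in Control_3D.

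ITGA2B, the platelet fibrinogen receptor chain, was at 21.6 CPM in Ni_6W replicate 1 and at 6.01 CPM or less elsewhere, with 4.67 CPM in Ni_6W replicate 2. Its log2 fold change in Ni_6W was 2.95 ± 0.87 (edgeR adjusted p = 0.0729), 1.42 (adjusted p = 0.429) without replicate 1 and 3.64 (adjusted p = 0.0156, beside 18.5% of genes called) without replicate 2. The same library had the highest ITGAX (5.44 CPM), another partner of ITGB2, and the highest ITGA7 (249 CPM), and ITGB2 had no reads there. The platelet and red-cell markers PF4, PPBP, GP9 and HBB had no reads in it either, which allows up to 0.124 CPM each. CD14 and CD68 were at 34.0 and 81.7 CPM there, the highest of the 20 libraries, and the part of these transcripts in the result was not tested.

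ITGA1 and ITGA2, chains of collagen receptors, and ITGB8 differed more between replicates than between the uncloned 6-week groups. ITGA1 was at 5.75 and 19.5 CPM in Control_6W, 10.3 and 23.2 in Ni_6W and 6.61 and 28.6 in Ni_6W+2W, in the order of the replicate numbers. ITGA2 was at 1.97 and 4.68 CPM, 2.74 and 5.63 CPM, and 1.84 and 4.36 CPM in the same groups. ITGB8, which with ITGAV activates TGF-beta, was at 3.01 and 16.8 CPM, 4.92 and 17.6 CPM, and 4.53 and 21.6 CPM. All 3 were lower in the library numbered 1 of each group, a pattern singled out after the values were seen, and the labels do not say whether a number marks a shared culture or day. ITGB4, which forms the hemidesmosome receptor with ITGA6, showed it in Control_6W (19.2 and 67.7 CPM) and Ni_6W+2W (26.7 and 105 CPM) but not in Ni_6W (102 and 96.5 CPM). None of the 4 was called.

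The clones differed from each other in a subset of chains. The SD of log2 CPM over the 6 clones had a median of 0.37 over the 30 members at a mean of at least 1 CPM, beside 0.22 over 13017 genes at that level, with no matching for abundance. It was 1.17 for ITGA4, 1.08 for ITGA11, a collagen receptor chain, 1.03 for ITGA9, a tenascin receptor chain, and 1.01 for ITGAX. ITGA11 was at 1.01, 4.77, 7.28, 1.26, 4.10 and 2.78 CPM and ITGA9 at 0.69, 3.73, 3.84, 0.86, 3.22 and 1.74 CPM in clones 1 to 6. Clones 1 and 4 were the lowest of the 6 for ITGA4, ITGA9 and ITGA11 alike. ITGA3, ITGB1, PTK2 and PXN had SDs of 0.10 to 0.13.

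Other genes of the pathway were read from 3 lists. Of 36 tested adaptors and kinases of adhesions, 1 rose and 2 fell in Ni_3D, with a median log2 fold change of -0.28 beside 0.03 over all genes, of which 4.33% were called. PARVG, a parvin, was at 13.7 and 12.7 CPM against 4.57 to 6.98 CPM in the controls (1.15 ± 0.27, edgeR adjusted p = 0.0384). ENAH and VASP, which extend actin filaments at adhesions, fell from 186 to 219 CPM to 111 and 91.2 CPM and from 131 to 174 CPM to 84.0 and 94.6 CPM (edgeR adjusted p = 0.0429 and 0.0432). PARVG (1.26) and VASP (-0.97) were also called without Control_3D replicates 1 and 2 (adjusted p = 0.0497 and 0.0227) and ENAH was not (-1.07, adjusted p = 0.0541). None of the 3 was called without the libraries with TFF1 and ESR1 (1.15, -0.79 and -1.24, adjusted p from 0.131 to 0.169). In Ni_6W 0 rose and 2 fell, beside 2.47% of genes called, with a median of -0.12. These were the scaffold BCAR1, at 106 and 103 CPM against 209 and 341, and its partner CRK, at 113 and 144 CPM against 217 and 272 (both adjusted p = 0.0497), and neither was called without Control_6W replicate 2 (-0.999 and -0.76, adjusted p = 0.236 and 0.233) or without Ni_6W replicate 1 (-1.42 and -0.77, both adjusted p = 0.255). In the clones 1 rose and 2 fell, beside 5.26% of genes called, with a median of 0.09 beside 0.01. TNS3, a tensin, rose by 1.90 ± 0.32 on the log2 scale (adjusted p = 0.0184), while CRK fell by 0.65 (adjusted p = 0.0303) and LIMS1, the PINCH adaptor that binds ILK, fell by 1.04 (adjusted p = 0.0449). CRK and LIMS1 were higher in Control_6W replicate 2 (272 and 88.5 CPM) than in replicate 1 (217 and 42.0 CPM). Without that library, in a fit with 1 Control_6W library, these calls were lost, as were most calls over all genes. TNS3 was then at 1.39, CRK at -0.49 and LIMS1 at -0.42 in the clones.

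Of 32 tested integrin ligands, 2 rose and 1 fell in Ni_3D, beside 4.33% of genes called, with a median of 0.08. The laminin chains LAMA5 (54.3 and 44.8 CPM against 7.94 to 17.3, adjusted p = 0.041) and LAMB3 (82.0 and 141 CPM against 34.4 to 69.4, adjusted p = 0.041) rose in edgeR. Neither was called without Control_3D replicates 1 and 2 (2.21 and 0.90, adjusted p = 0.0501 and 0.111) or without the libraries with TFF1 and ESR1 (1.99 and 1.38, adjusted p = 0.147 and 0.0903). POSTN, periostin, fell from 1.52 to 4.22 CPM in Control_3D to 0 and 1 read (-7.92, edgeR adjusted p = 0.00101). It was at -7.46 without Control_3D replicates 1 and 2 (adjusted p = 0.00295) and at -7.39 without the libraries with TFF1 and ESR1. POSTN was higher again in Ni_3D+14D than in Ni_3D, at 1.05 and 0.53 CPM (6.10, edgeR adjusted p = 0.0226). This second call was lost without the libraries with TFF1 and ESR1 (5.57) and without any 1 library of the 2 groups (5.54 to 7.32). In Ni_6W 4 rose and 1 fell, beside 2.47% of genes called, with a median of 0.27. COL1A2, a fibrillar collagen chain, was at 43.8 and 12.3 CPM against 0.55 and 0.18 in Control_6W, and LAMA4, a laminin chain, was at 5.36 and 3.17 CPM where neither control had a read. LAMA3, a chain of the ligand of ITGA3 and ITGA6, rose by 1.42 ± 0.32, MFGE8, a ligand of ITGAV receptors, rose by 1.24 ± 0.30, and POSTN, at 1.42 and 1.88 CPM in the controls, had no reads in Ni_6W (each adjusted p = 0.0497). With only the 2 groups compared COL1A2, LAMA4 and POSTN were called. LAMA3 and MFGE8 were not called in that fit (1.40 and 1.22, edgeR adjusted p = 0.141 and 0.183) or without Control_6W replicate 1 (1.16 and 1.09). MFGE8 was at 0.595 without Ni_6W replicate 1. Without Control_6W replicate 2 or Ni_6W replicate 1 edgeR called 0 of 33 ligands, as it called 0 of all genes.

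In the clones 3 of 31 tested ligands rose and 1 fell, beside 5.26% of genes called, with a median of 0.19. COL5A1 rose by 2.44 ± 0.47 (edgeR adjusted p = 0.0265) and FBN1, fibrillin, by 1.20 ± 0.17 (adjusted p = 0.0114). LAMA4 was at 0.87 to 8.69 CPM, with no reads in Control_6W (adjusted p = 0.0449). LAMA1 fell by 1.58 (adjusted p = 0.0159) from 89.4 and 193 CPM to 36.0 to 59.5 CPM. Without Control_6W replicate 2 edgeR called 0 of 32 ligands and 0.0411% of genes in the clones. COL5A1 shared the split of the short controls, at 593 and 390 CPM against 110 and 74.2 CPM in Control_3D. Of 11 tested hemidesmosome and tetraspanin partners, 1 rose in Ni_3D (LAMB3), beside 4.33% of genes called. LAMB3 and LAMA3 are also on the list of ligands, so their calls are those given above. In the clones edgeR called 0 of 10, beside 5.26% of genes. There 0 were at an unadjusted p under 0.05 (25.2% of genes) and 0 were called by DESeq2 (13.9%). In Ni_6W 1 rose (LAMA3) and 1 fell, beside 2.47% of genes called. The gene that fell, PLEC, the plectin that links ITGB4 to keratins, was at 279 and 615 CPM in Ni_6W against 1094 and 1262 CPM in Control_6W (edgeR adjusted p = 0.0497). It was not called with only the 2 groups compared (-1.4, edgeR adjusted p = 0.152). The call was also lost without Control_6W replicate 1, without replicate 2 and without Ni_6W replicate 1, fits that leave 1 library in a group. The log2 fold change of PLEC in them was -1.5, -1.295 and -0.945.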

How the data were processed

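Libraries of BEAS-2B total RNA came from a TruSeq RNA kit, per the labels' protocols. For each of 20 libraries the authors deposited raw read counts per RefSeq gene with no normalisation and, per the file headers, an RPKM value beside each count, made by the authors. The submitters' processing notes name STAR 2.4, DESeq, DESeq2, GRCh37 and hg19. Of their roles, the counting and the strand nothing is given in the sources used here, so reads of overlapping genes on opposite strands, or of near-identical stretches, cannot be told apart. Libraries were joined by RefSeq identifier, since 28 symbols, none of a member, had been changed in 2 libraries.

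The counts of 14 uncloned libraries in 6 groups were fitted together in edgeR 4.0.16 in R 4.3.3 by its quasi-likelihood F test, with TMM scaling, robust dispersions and filterByExpr (min.count 10, min.total.count 15). Clones were fitted with Control_6W or Ni_6W+2W alone. p-values were adjusted over all genes by the Benjamini-Hochberg method, and an adjusted p under 0.05 was a call. The coefficient of variation was 29.7% for uncloned libraries, and 24.7% (with Control_6W) and 24.8% (with Ni_6W+2W) for the clones. Of the 38 members 33 passed the filter, and ITGA8, ITGAD, ITGAL, ITGB2 and ITGB6 did not. On simulated counts edgeR recovered the planted changes of 2-fold, 4-fold and 8-fold in 27.3%, 79.6% and 91.7% of genes in Ni_3D (14927 genes), 17.5%, 68% and 78% in Ni_6W (14927 genes) and 55.1%, 91.7% and 100% in the clones (14172 genes). False calls were 8, 5 and 2. Counts were drawn from fitted dispersions at 1 mean per gene, without the split of Control_3D or an odd library. Recovery in the real libraries can therefore be lower. A lone library left in a group was assumed to vary like the other groups. Alternatives were RLE size factors, DESeq2 1.42.0, no filter, a replicate block, other sets of libraries and leaving out each library. Members, lists (adhesion adaptors and kinases, integrin ligands, hemidesmosome and tetraspanin partners, cell type markers) and tests were chosen with earlier results of these data known. A marker gene of the cell type lists is not reported here. All members are accounted for. Members that were called or differed most between libraries are given by library, with up to 4 called genes of each list by smallest adjusted p.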

Additional observations from a re-analysis of the deposited data

Results flagged for a closer look

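In groups of 4 to 10 libraries, 5 single values stood far from the rest of their group by Dixon's test, among 66 gene and group combinations, where chance gives about 1 in 20. ITGA1 was at 10.5 CPM in Control_3D replicate 2, against 6.44 to 6.93 CPM in the other 3, and ITGA2 was at 3.21 CPM in Control_3D replicate 1, against 1.40 to 1.70 CPM. Clone 1 was the highest for ITGA2 at 6.60 CPM (2.02 to 3.28 in the other 5 clones), for ITGAX at 4.22 CPM (0.41 to 1.76) and for ITGB5 at 96.6 CPM (50.8 to 63.8). PTK2 went opposite ways in every library: both Ni_3D libraries, at 105 and 99.8 CPM, were below all 4 Control_3D libraries (106 to 118 CPM), and both Ni_6W libraries, at 136 and 145 CPM, were above both Control_6W libraries (116 and 134 CPM). The test of that difference, the long minus the short response, gave a log2 value of 0.31 ± 0.22 and did not pass (edgeR adjusted p = 0.627).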

How the results depend on the processing

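Counts of members called moved with the settings, and the cause was not tested. Shares of all genes called moved with them, also on leaving out 1 library at a time. DESeq2 gave 3 in Ni_3D (beside 13.5% of genes), 7 in Ni_6W (13.8%) and 1 in Ni_6W+2W (2.24%). It gave 6 in the clones against Control_6W (13.9%) and 8 for any difference among uncloned groups (21.5%). Without the filter the counts were 1 in Ni_3D (ITGB2, beside 2.69% of genes), 1 in the clones (ITGAV, 3.42%) and 2 for any difference (2.54%). More genes were tested in these fits. Without Control_3D replicates 1 and 2 the counts were 4 in Ni_3D (beside 7.95% of genes), 1 in Ni_3D+14D (0.758%) and 3 for any difference (5.41%). Without replicates 3 and 4 they were 2 in Control_6W against Control_3D (2.02%), 1 in the long minus the short response (0.679%) and 1 for any difference (2.73%). With only the 2 groups compared the count in Ni_3D was 2 (FERMT2 and ITGB2, beside 4.66% of genes). In Ni_6W ITGA4 then took the place of FERMT1, beside 0.808% of genes. With all 20 libraries in 1 fit the clones gave 0, beside 3.11% of genes. Leaving out 1 library at a time gave 0 to 1 in Ni_3D, 0 to 3 in Ni_6W, 0 to 1 between the controls, 0 to 3 in the clones and 0 to 5 for any difference. Among members called under any setting, ITGA4 and ZYX changed sign. Without Control_3D replicates 1 and 2 ITGA4 went to 4.17 in Ni_3D, from -2.83 to 2.02 in Control_6W against Control_3D, and from 3.96 to -0.86 in the long minus the short response. It was at 0.03 in Ni_3D without Control_3D replicate 2 and at -0.21 in Ni_3D+14D without replicates 3 and 4. The replicate block gave -0.21 there as well, because Control_3D replicates 3 and 4 share no number with a short-exposure nickel library. Between the controls the block gave 1.79 for ITGA4, with Control_3D resting on replicate 4 alone, so that sign is no separate result. ZYX in the clones went from -0.78 to 0.07 without Control_6W replicate 2. No called gene of the other lists changed sign, in fits added after seeing the data. Replicate numbers are shared between groups, but no label says that they pair libraries, and there are only 2 pairs. Deviations of libraries with the same number correlated at 0.35 and -0.03 in Ni_3D with Control_3D, at -0.05 in Ni_6W and at 0.26 in Ni_6W+2W with Control_6W. With the replicate block the count was 4 in Ni_6W (FERMT1, ITGA4, ITGA6 and ITGB3), beside 5.78% of genes, where the main fit called 2.47%. It was 1 in Ni_6W+2W (1.06%), 1 in the long minus the short response (0.884%) and 1 for any difference (1.41%), each ITGA4. In the clones it was 0, beside 0.148% of genes. The block left the contrast of the clones with Control_6W to clones 1 and 2. It left those of the short nickel groups to Control_3D replicates 1 and 2. RLE size factors moved none of these counts. With 2 libraries in most groups, changes of 2-fold were recovered on simulated counts in 27.3% of genes in Ni_3D, 17.5% in Ni_6W and 55.1% in the clones.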
